A study of Mus musculus with 6 samples.

Results

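The 10 genes of neutral lipid storage described here were followed through the differentiation of C2C12 cells: the lipid droplet coat proteins Plin2, Plin3, Plin4 and Plin5, the lipases Pnpla2, Lipe and Mgll, the lipase coactivator Abhd5, and the triglyceride synthases Dgat1 and Dgat2. They were taken by symbol, all 10 were found, and the deposited table held 27179 genes in all. C2C12 is an established mouse myoblast line whose cells divide in rich serum and, once serum is lowered, fuse into myotubes with many nuclei. The myoblast group holds 3 libraries from sub-confluent cultures in high glucose DMEM with 10% fetal bovine serum. For the 3 myotube libraries, cultures stood fully confluent (100%) for 3 days and then spent 5 days in high glucose DMEM with 2% horse serum and a supplement of insulin, transferrin, selenium and ethanolamine. L-glutamine was 4 mM in both media, and both groups are the unmodified parental line. Serum source and amount, the supplement, cell density and differentiation differ together between the groups and cannot be told apart. Since no separate cultures are named for the 3 harvests of a group, every p-value rests on a spread between libraries that may be technical.

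Cells store fatty acids as triglyceride in lipid droplets, whose surface is coated by perilipins. Plin2 and Plin3 are found in most tissues, Plin4 is abundant in fat and is also found in muscle, and Plin5 is typical of tissues that burn fat, such as heart and oxidative muscle. Droplet triglyceride is cut in sequence by adipose triglyceride lipase (Pnpla2, with its coactivator Abhd5), hormone-sensitive lipase (Lipe) and monoacylglycerol lipase (Mgll), while Dgat1 and Dgat2 carry out the last step of triglyceride synthesis. In muscle these droplets lie beside mitochondria and serve as local fuel.

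Myoblast libraries held 10076945 to 11723881 counts and myotube libraries 7370169 to 8339589. All 6 myotube markers, such as Myog and Myh3, were higher in myotubes and all 4 proliferation markers, such as Mki67, were lower. None of the 3 myoblast markers passed the test against 2-fold. Myod1 fell by 0.16 on the log2 scale (edgeR adjusted p = 0.00176). Myf5 had a log2 change of −0.13 (adjusted p = 0.0463) and lost its call in 7 of 14 alternative settings, among them without myoblast library 1 (adjusted p = 0.124) or 3 (0.106) or myotube library 1 (0.0519) or 3 (0.23). Pax7, with a log2 change of 0.10, did not pass (adjusted p = 0.14) except without myotube library 3 (adjusted p = 0.0222). Markers of fat cells were at or near 0. Of 9 adipocyte markers 5 (Adipoq, Cidea, Retn, Cfd and Ucp1) had 0 counts in every library, and the whole list summed to 2 counts in the myoblast group and 3 in the myotube group, or 0 to 0.0898 CPM and 0 to 0.428 CPM per library. The 4 osteoblast markers summed to 0.325 to 0.847 CPM in myoblast libraries and 0.285 to 0.883 CPM in myotube libraries. CPM is the read count of a gene scaled to library size, here after TMM, a correction for the makeup of each library.

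The coats, lipases and synthases did not move as a block. Of the 10 genes 9 had enough counts to be tested, and in edgeR's quasi-likelihood fit, with Benjamini-Hochberg adjustment over 12800 genes, 3 were higher in myotubes (Mgll, Dgat2 and Pnpla2) and 2 were lower (Plin2 and Plin4). Of all tested genes 79.5% were called, 40.2% higher and 39.2% lower, so most genes of any kind were called in this comparison. Past a 2-fold change, tested as such, were Mgll upward and Plin4 downward, while 21.6% of all genes passed that test, 12.4% upward and 9.2% downward. The median log2 change of the 9 genes was −0.03, beside 0.02 for all tested genes. For 7 of the 9 genes the ranges of the groups were separate, 4 higher and 3 lower, as they were for 80.5% of all tested genes, 40.6% higher and 39.9% lower. In bulk RNA, a lower share of cells that express a gene and less of its RNA per cell cannot be told apart.

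**Figure D1:**
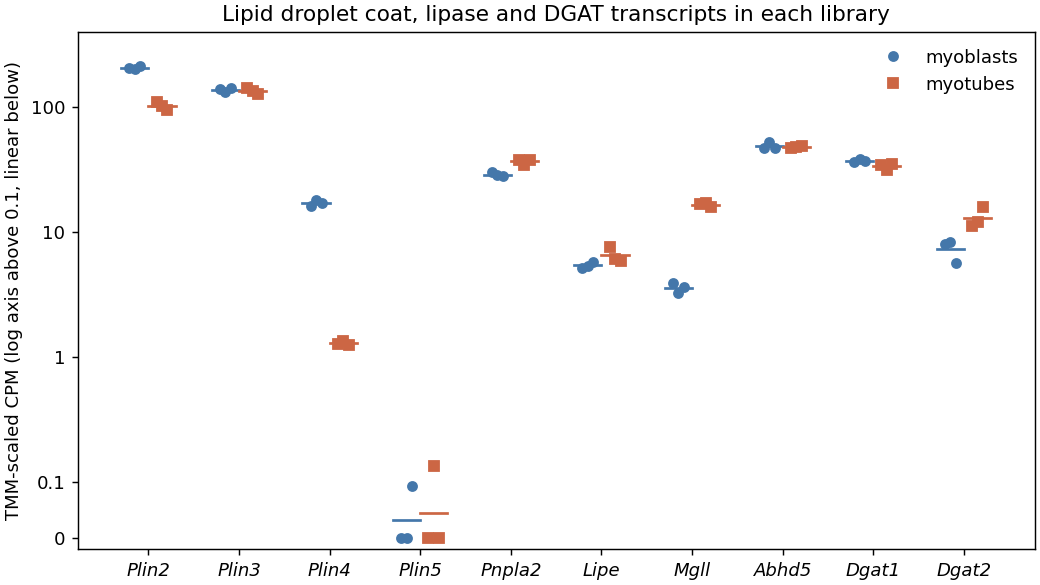
TMM-scaled CPM of each gene in each of the 3 myoblast (circles) and 3 myotube (squares) libraries, on an axis that is logarithmic above 0.1 and linear below it; short lines are group means. Plin4 lies near 17 CPM in myoblasts and near 1.3 CPM in myotubes, Mgll rises, and Plin5 is at 0 in 4 of 6 libraries.

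**Figure D2:**
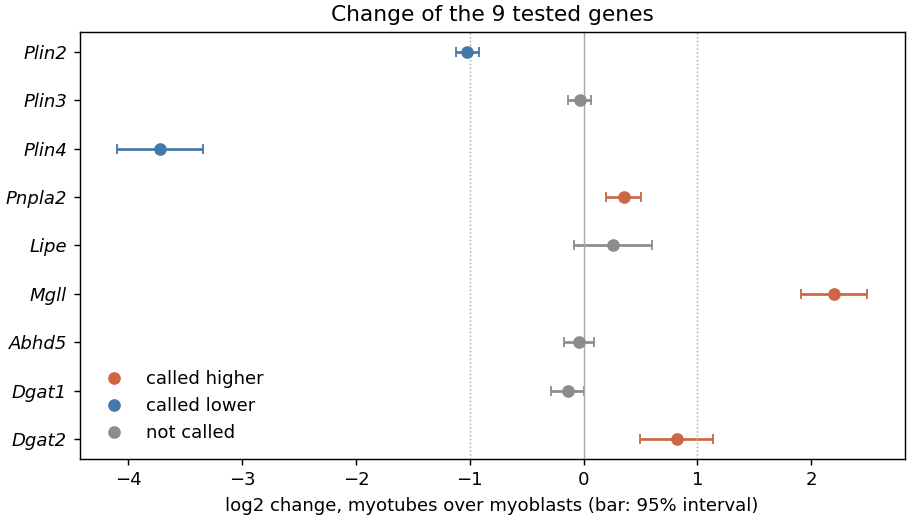
Log2 change of myotubes over myoblasts for the 9 tested genes from edgeR, with 95% intervals; solid line at no change, dotted lines at 2-fold. Plin4 (−3.72) and Mgll (2.20) lie beyond the dotted lines with their whole intervals, and the intervals of Plin3, Lipe, Abhd5 and Dgat1 include 0.

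Among the perilipins, the most abundant one in myoblasts fell, another was nearly level, the third fell to a trace and the fourth was hardly detected in either state. Plin2, a coat protein that is stable only while bound to droplets, had 208, 204 and 213 CPM in myoblast libraries 1, 2 and 3 and 110, 103 and 96.0 CPM in myotube libraries 1, 2 and 3. Every myotube library lay below every myoblast library. The mean was 208.5 ± 4.399 CPM before and 103 ± 6.94 CPM after differentiation (SD, n = 3), a log2 change of −1.02 (SE 0.05, adjusted p = 3.73e-16), which is 2.03-fold lower and not past a 2-fold change (adjusted p = 0.549 by edgeR's test against 2-fold). Plin2 (Entrez gene 11520) lies on chromosome 4 of GRCm38 at 86626910 to 86670217, and 4.89% of the 50-base windows of its transcript also occur in other annotated transcripts.

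Plin3, a coat protein that moves from the cytosol onto young droplets, had 141, 133 and 142 CPM in myoblasts and 143, 135 and 128 CPM in myotubes. The groups overlapped. The log2 change was −0.03 with a 95% interval of −0.13 to 0.07 (adjusted p = 0.530). Scaling by total counts, which shifts the median of all genes by −0.15, gave −0.18 (adjusted p = 0.00162), close to that shift.

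Plin4, a large perilipin built from many near-identical repeats, showed the largest change of the 10 genes. It had 16.3, 18.2 and 17.3 CPM in myoblast libraries 1, 2 and 3 and 1.28, 1.35 and 1.26 CPM in myotube libraries 1, 2 and 3. All myotube libraries lay far below all myoblast libraries, with 590 counts in the myoblast group and 29 in the myotube group. It was 13.2-fold lower in myotubes (log2 change −3.72, SE 0.18, adjusted p = 8.82e-16) and passed the test against 2-fold (adjusted p = 5.04e-13). Of the 50-base windows of its transcript 17.4% occur more than once within that same transcript and 0 occur in another gene. Whether reads with several matches were counted is not stated in the labels, so its level, more than its change, is uncertain.

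Plin5 had 1 count in myoblast library 3, 1 count in myotube library 2 and 0 in the other 4 libraries. Both groups were thus below the level of 3 counts over a group, or 0.088 CPM for myoblasts and 0.134 CPM for myotubes. Plin5 was therefore not detectable at this depth in either state, and the main fit gave no fold for it. The same myotube libraries held 12430 to 12960 CPM of the 6 myotube markers together. Plin1, the fat cell perilipin, had 1 count in all.

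Plin4, Plin5 and Plin3 lie on the same strand of chromosome 17, Plin4 (57435) at 56100587 to 56109948, Plin5 (66968) at 56111597 to 56117606 and Plin3 (66905) at 56278962 to 56290511. Only 1648 bases separate Plin4 from Plin5, so neighbouring genes of the same family were in 1 case strongly lower in myotubes and in the other nearly silent throughout. Plin4 also shares 17 exon bases with Hdgfl2 on the opposite strand, 0.294% of its exon length. The bases upstream of the annotated genes are shown for the coats that fell and, for comparison, for Plin5, from RefSeq on GRCm38.p6, minus strand of the chromosome, 5′ to 3′ in the direction of the gene. Each line is the part of the upstream window that lies outside the annotated gene, so the lines differ in length.
Plin2 chr4:86670218-86670309: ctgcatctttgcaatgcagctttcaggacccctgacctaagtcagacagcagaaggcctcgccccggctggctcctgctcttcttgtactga
Plin4 chr17:56109949-56110032: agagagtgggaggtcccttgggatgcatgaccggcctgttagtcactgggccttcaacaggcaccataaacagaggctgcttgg
Plin5 chr17:56117607-56117798: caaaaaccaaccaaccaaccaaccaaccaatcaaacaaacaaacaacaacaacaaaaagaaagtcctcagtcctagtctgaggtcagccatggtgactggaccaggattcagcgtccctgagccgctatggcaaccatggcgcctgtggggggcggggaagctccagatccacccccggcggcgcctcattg
Capitals would mark the E-box CANNTG, the core bound by myogenic helix-loop-helix factors. None of these 3 stretches has a match, while 33.8%, 31.5% and 57.7% of 32851 RefSeq promoter windows of the same lengths hold at least 1. The nuclear receptor core AGGTCA, searched on both strands, has 1 match in the Plin2 stretch, 0 in that of Plin4 and 1 in that of Plin5, beside 5.32%, 4.79% and 10.9% of windows.

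These changes altered the makeup of the perilipin pool. Counts were divided by exon length so that genes can be compared, and each gene was expressed as a share of the sum over Plin2 to Plin5. Plin2 made up 59.7, 60.3 and 59.9% of the pool in myoblast libraries 1, 2 and 3 and 45.1, 44.9 and 44.5% in myotube libraries 1, 2 and 3. Plin3 took 37.5, 36.4 and 37.0% in myoblasts and 54.6, 54.6 and 55.1% in myotubes. By this measure Plin2 led in every myoblast library and Plin3 in every myotube library. With no length scaling, Plin3 also led in myotubes, with a mean of 56.5% beside 42.9% for Plin2. The lead depends on the length used. Exon lengths were 3512 bases for Plin2 and 3786 for Plin3, but their longest coding transcripts have 1888 and 3645 bases. Shares by transcript length were not computed. Plin4 went from 3.02% ± 0.215 to 0.345% ± 0.0219 (SD, n = 3). Mean differences were −15.1 percentage points for Plin2, 17.8 for Plin3 and −2.68 for Plin4, each with an exact two-sided permutation p = 0.1 (0.1 also after adjustment over 5 shares and ratios), the smallest p that 3 against 3 libraries can give. Shares of a library add up to the whole pool, so these differences are not separate results. Plin3 gained share while its own level was nearly unchanged (log2 change −0.03). By coding length instead of exon length the Plin4 difference was −1.34 points, and with no length scaling −4.20 points.

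**Figure D3:**
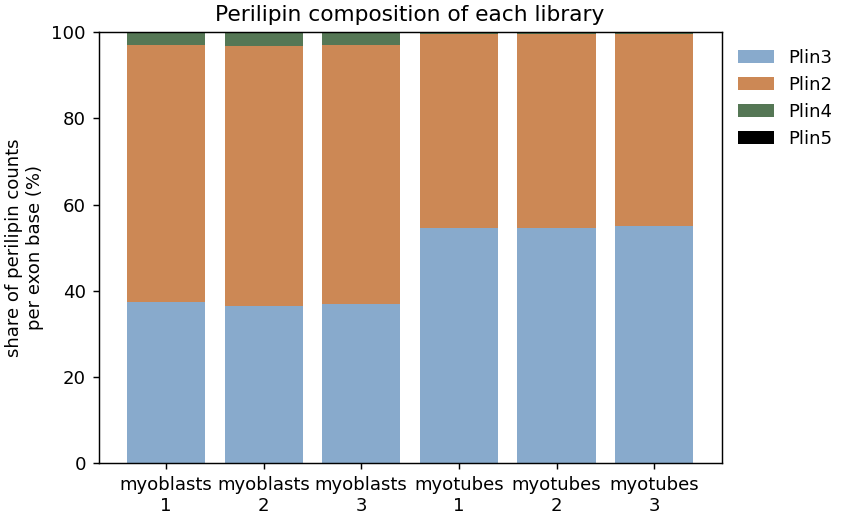
Stacked bars give the share of Plin2, Plin3, Plin4 and Plin5 in the summed perilipin counts per exon base of each library, in percent. The share of Plin3, not its level, rises from 36.4 to 37.5% in myoblast libraries to 54.6 to 55.1% in myotube libraries, and the Plin4 band shrinks to under 0.4%.

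Of the lipases, the enzymes of the first and last cut were higher in myotubes. Mgll, which releases the final fatty acid from monoacylglycerol and also degrades the endocannabinoid 2-arachidonoylglycerol, had 3.95, 3.25 and 3.67 CPM in myoblasts and 16.8, 17.2 and 16.0 CPM in myotubes. The groups lay far apart. Mgll rose 4.601-fold (log2 change 2.20, SE 0.14, adjusted p = 2.03e-13) and passed the test against 2-fold (adjusted p = 7.84e-09). It lies on chromosome 6 at 88724412 to 88828360 (Entrez 23945), and an antisense gene at its start, Gm26588, shares 3.29% of its exon bases.

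Pnpla2, which makes the first cut in triglyceride, had 30.3, 28.7 and 28.1 CPM in myoblasts and 38.2, 34.9 and 38.2 CPM in myotubes. The myotube libraries were all higher, by a small margin. The change was 1.28-fold (log2 change 0.36, SE 0.07, adjusted p = 1.29e-04), and it was 0.21 on the log2 scale with scaling by total counts (adjusted p = 0.0136). Pnpla2 (66853) lies on chromosome 7 at 141455188 to 141460743.

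The upstream sequences of the 2 lipase genes that rose are given from RefSeq on GRCm38.p6, plus strand, 250 bases each, with E-box matches (CANNTG) in capitals.
Mgll chr6:88724162-88724411: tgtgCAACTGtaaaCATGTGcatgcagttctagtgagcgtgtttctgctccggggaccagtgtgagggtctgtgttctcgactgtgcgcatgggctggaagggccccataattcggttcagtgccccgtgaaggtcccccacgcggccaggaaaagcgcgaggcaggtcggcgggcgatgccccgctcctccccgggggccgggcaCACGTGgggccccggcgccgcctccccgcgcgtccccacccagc
Pnpla2 chr7:141454938-141455187: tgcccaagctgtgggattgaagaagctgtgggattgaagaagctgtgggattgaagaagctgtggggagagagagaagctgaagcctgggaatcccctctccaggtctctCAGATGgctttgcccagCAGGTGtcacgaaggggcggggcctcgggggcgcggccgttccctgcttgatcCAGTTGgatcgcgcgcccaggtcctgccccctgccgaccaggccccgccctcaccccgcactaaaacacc
Each window holds 3 such matches, and 66.2% of promoter windows of this length hold at least 1. The form CAGCTG has 0 matches in both, beside 13.0% of windows, and AGGTCA also has 0, beside 14.0%. A match of letters is a description and shows no binding.

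Hormone-sensitive lipase, Lipe, which acts mainly on diacylglycerol, was low and did not pass. It had 5.21, 5.36 and 5.83 CPM in myoblasts and 7.70, 6.08 and 5.93 CPM in myotubes, with library 1 the highest of the myotubes and the groups just separate. The log2 change was 0.26 with a 95% interval of −0.08 to 0.60 (adjusted p = 0.154). Lipe (16890, chromosome 7, 25379527 to 25398486) shares 15.6% of its exon bases with an antisense gene, 4732471J01Rik, and since the labels do not say whether counting used strand, its level is uncertain.

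Abhd5, which binds and activates the enzyme that Pnpla2 encodes, had 47.6, 52.9 and 47.8 CPM in myoblasts and 47.2, 48.5 and 48.9 CPM in myotubes. The groups overlapped, and the log2 change was −0.04 with a 95% interval of −0.17 to 0.10 (adjusted p = 0.600). With scaling by total counts it was −0.18 (adjusted p = 0.0116), again close to the shift of all genes. Abhd5 (67469, chromosome 9, 122351616 to 122381524) shares 16.0% of its exon bases with the antisense gene A730085K08Rik. Of the 50-base windows of its transcript 29.0% also occur, on either strand, in other annotated transcripts. As for Lipe, its level is therefore uncertain, and so is the ratio that follows. The log2 ratio of Abhd5 to Pnpla2 counts had a mean of 0.77 ± 0.12 for myoblasts and 0.38 ± 0.09 for myotubes (SD, n = 3). Myoblast libraries had 0.65, 0.89 and 0.77, all above the 0.30, 0.48 and 0.36 of the myotube libraries. The exact permutation p was 0.1, the smallest possible, and 0.1 after adjustment. Counts were not divided by length here, so the sign of this ratio does not show which RNA is more abundant.

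Of the 2 triglyceride synthases, which belong to unrelated protein families, Dgat2 passed the test and Dgat1 did not. Dgat2 had 8.08, 8.45 and 5.65 CPM in myoblasts and 11.3, 12.03 and 15.9 CPM in myotubes. All myotube libraries were higher, and in each group 1 library stood off, at 5.65 CPM in myoblasts and at 15.9 CPM in myotubes. Dgat2 rose 1.77-fold (log2 change 0.82, SE 0.16, adjusted p = 3.87e-05). Leaving out any 1 library gave log2 changes from 0.65 to 0.93. Dgat2 (67800) lies on chromosome 7 at 99153663 to 99182713.

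Dgat1 had 36.4, 38.7 and 37.2 CPM in myoblasts and 34.5, 31.8 and 35.6 CPM in myotubes, with every myotube library slightly lower. The log2 change was −0.14 with a 95% interval of −0.29 to 0.01, and it did not pass (adjusted p = 0.0774). It passed without myotube library 3 (log2 change −0.18, adjusted p = 0.0478), when low counts were not filtered (adjusted p = 0.0269), after thinning to equal depth (adjusted p = 0.0360) and with scaling by total counts (−0.29, adjusted p = 8.21e-04). Dgat1 (13350) lies on chromosome 15 at 76502012 to 76512021. The log2 ratio of Dgat2 to Dgat1 was −2.17, −2.19 and −2.72 for the myoblasts and −1.61, −1.40 and −1.16 for the myotubes. Dgat1 remained the more abundant synthase in every library, while the mean ratio rose by 0.97 (exact permutation p = 0.1, the smallest possible, 0.1 after adjustment).

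Per kilobase of exon, the same 5 genes held the top 5 places in both states, with Plin2 and Plin3 in exchanged places and likewise Dgat1 and Pnpla2. In myoblasts Plin2 led with 59.4 ± 1.25 CPM per kb, before Plin3 with 36.6 ± 1.32, Dgat1 with 12.2 ± 0.369, Pnpla2 with 9.61 ± 0.365 and Abhd5 with 8.30 ± 0.510 (SD, n = 3). Plin4 followed with 2.99 ± 0.161, then Dgat2 with 2.40 ± 0.494, Lipe with 0.929 ± 0.0556 and Mgll with 0.714 ± 0.0695 CPM per kb. In myotubes Plin3 led with 35.8 ± 2.04, before Plin2 with 29.3 ± 1.98, Pnpla2 with 12.3 ± 0.638, Dgat1 with 11.1 ± 0.642 and Abhd5 with 8.10 ± 0.155 CPM per kb. The lower places went to Dgat2 with 4.24 ± 0.807, Mgll with 3.28 ± 0.116, Lipe with 1.12 ± 0.166 and Plin4 with 0.225 ± 0.00815 CPM per kb. Plin4 thus went from rank 6 to rank 9 and Mgll from rank 9 to rank 7. Between neighbours in this order the library ranges overlapped only for Pnpla2 and Dgat1 in myotubes. These levels and their order rest on annotated exon lengths and not on the isoforms the cells use. Dgat1 and Pnpla2 have exon lengths of 3056 and 3020 bases, but longest coding transcripts of 1888 and 2625. The exchanged places, also those of Plin2 and Plin3, may therefore not hold with other lengths.

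The steps that feed the DGATs changed in both directions, as did tested genes at large. Of 17 genes from glycerol 3-phosphate and monoacylglycerol to diacylglycerol 15 were tested, 8 rose and 4 fell, with a median log2 change of 0.27. Of all tested genes 79.5% were called, 40.2% higher and 39.2% lower, so many calls in a list are usual here. Gpd1, the cytosolic glycerol 3-phosphate dehydrogenase that also works in the glycerol phosphate shuttle, had 30 counts in the myoblast group, a mean of 0.893 ± 0.296 CPM, and 103 ± 6.48 CPM in myotubes (SD, n = 3). Its log2 change was 6.85 (SE 0.13, adjusted p = 7.64e-25). Gpd1 shares 13.0% of its exon bases with the antisense gene Gm16537, and whether counting used strand is not given. Gpd1l, a relative of Gpd1, at 55.2 ± 3.03 CPM in myoblasts, reached 117 ± 7.56 CPM, a log2 change of 1.08. Glycerol kinase, Gk, which makes glycerol 3-phosphate from free glycerol, was at 15.1 ± 2.89 CPM in myoblasts and 5.88 ± 1.30 CPM in myotubes. It fell by 1.35 on the log2 scale (SE 0.17, adjusted p = 5.36e-08). Lpin2, a phosphatidate phosphatase, fell by 0.85 on the log2 scale. The genes left untested for low counts were Gpat2 and Mogat1.

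Among 14 genes of droplet assembly and surface 10 were tested, of which 6 rose and 2 fell, with a median of 0.58 (0.58 also with the gene at 0 counts set to its bound). Among all tested genes 40.2% were called higher and 39.2% lower. Hsd17b13, a droplet-bound protein best known from liver, had 0 counts in all myoblast libraries and 21, 25 and 41 counts in myotube libraries 1, 2 and 3, at least 44.2-fold higher than 3 counts over the myoblast group. Fitm1 is a muscle-enriched protein of the endoplasmic reticulum needed for droplet budding. It had 4 counts in the myoblast group and 82 in the myotube group (log2 change 4.82, SE 0.47, adjusted p = 8.61e-10). Fitm1 shares 11.2% of its exon bases with the antisense gene Gm15932. Ldah, a droplet-associated hydrolase, fell by 0.62 and Hsd17b11 by 0.48 on the log2 scale. Cidea had 0 counts in every library, while Cideb, Cidec and Plin1 were too low to test.

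The other lipases and inhibitors showed small changes. Of 11 genes 6 were tested, 2 rose (Lpl, 0.26, and the lysosomal lipase Lipa, 0.23) and 3 fell, with a median log2 change of 0.03. The shares over all tested genes were 40.2% higher and 39.2% lower. Lpl lost its call in 8 of 14 alternatives, with an adjusted p of up to 0.314, among them leaving out myoblast library 1 (0.0936) or 2 (0.0598) or myotube library 2 (0.147) or 3 (0.0764). Lipa lost it in 1, scaling by total counts (adjusted p = 0.164). The monoacylglycerol hydrolases Abhd6 and Abhd12 had log2 changes of −0.76 (SE 0.12) and −0.70 (SE 0.06), opposite to Mgll, which cleaves the same class of lipid. The third to fall, Ddhd2, was no longer called in 5 of 14 alternatives, including those that left out myoblast library 2 (adjusted p = 0.0770) or 3 (0.101) or myotube library 1 (0.273) or 2 (0.0785). G0s2, a protein inhibitor of Pnpla2, had 0 counts in every library, as did Pnpla5 and Ces1d, so levels up to the same 0.088 and 0.134 CPM remain possible. Hilpda, another inhibitor of Pnpla2, had 11.4 ± 0.577 and 13.6 ± 2.49 CPM and did not pass (log2 change 0.25, 95% interval −0.01 to 0.52, adjusted p = 0.0770). Its name was added with its values known.

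Hormones act on lipolysis through cyclic AMP and protein kinase A, which phosphorylates Lipe and perilipins. Of 17 genes of this route 12 were tested, 5 rose and 5 fell, beside 40.2% and 39.2% of all tested genes. Their median log2 change was 0.04. Prkaca, a catalytic subunit of the kinase, was at 144 ± 2.70 CPM before and 319 ± 7.10 CPM after differentiation. It rose by 1.15 on the log2 scale (SE 0.04, adjusted p = 6.40e-19). Pde3b, the phosphodiesterase through which insulin lowers cyclic AMP, was at 47.5 ± 2.55 CPM in the myoblast group and 23.1 ± 2.00 CPM in the myotube group. It fell by 1.04 on the log2 scale (SE 0.08, adjusted p = 6.16e-12). The adenylyl cyclase Adcy3 fell by 0.45 on the log2 scale. It shares 22.1% of its exon bases with Cenpo on the opposite strand and lost its call after thinning to equal depth (log2 change −0.24, adjusted p = 0.189). With scaling by total counts 3 of these genes were higher in place of 5, beside 4268 in place of 5146 of all tested genes. Gnas and Prkacb were no longer called, and the log2 change of Gnas turned to −0.06. Gnas, with a log2 change of 0.09, also lost its call with no filter (log2 change 0.04, adjusted p = 0.359). The call was lost too without myoblast library 1 (adjusted p = 0.135) or 3 (0.1) or myotube library 2 (0.123).

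Of 8 PPAR regulators, nuclear receptors of fatty acids with their partners and coactivators, 6 were tested, 2 rose and 2 fell, with a median of 0.11. Of all tested genes, 40.2% were called higher and 39.2% lower. Ppargc1a, a coactivator of mitochondrial genes, had 12 counts in the myoblast group, or 0.360 ± 0.172 CPM, and 4.74 ± 0.723 CPM in myotubes. It rose by 3.70 on the log2 scale (SE 0.34, adjusted p = 2.58e-10). Pparg, the receptor of fat cell differentiation, fell by 0.47 and Ppard, the form common in muscle, by 0.42 on the log2 scale. Rxrb rose by 0.23 and lost its call with scaling by total counts (adjusted p = 0.241). Ppara and Rxrg were too low to test.

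**Figure D4:**
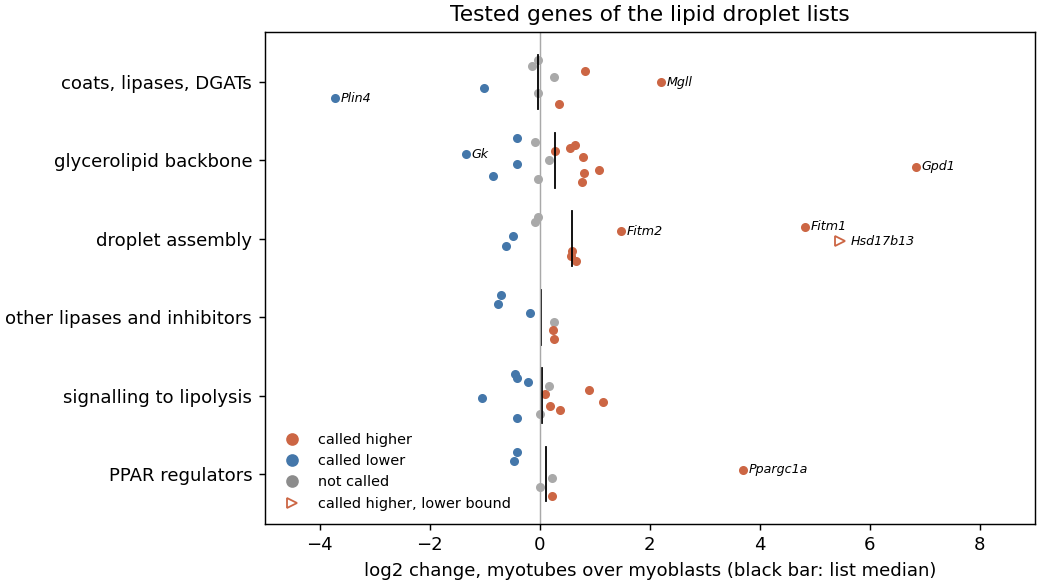
Log2 change of myotubes over myoblasts for every tested gene of the 6 lists, coloured by its call; black bars are list medians, and the open triangle is the lower bound of Hsd17b13, which had 0 counts in myoblasts. Changes past 1.2 are named, and medians lie between −0.03 and 0.58.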

How the data were processed

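The deposited table gives raw counts for 6 poly(A) libraries, keyed by Entrez gene ID. The submitters' processing notes name fastp, STAR, featureCounts and mm10. Not given in the sources used here are versions, the strand setting and the treatment of reads with several matches. A stranded kit was used, per the labels' protocols. Groups come from sample titles, and columns were matched by name. Of 27179 genes, 8724 had 0 counts throughout and 1049 had no symbol.

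Counts were tested with edgeR 4.0.16 in R 4.3.3: filterByExpr (minimum count 10, minimum total 15; 12800 genes kept, at least 99.86% of counts), TMM, and the robust quasi-likelihood F test without a block, with glmTreat against 2-fold. P-values were adjusted by Benjamini-Hochberg over all tested genes, threshold 0.05. The SE was taken as |log2 change| over the root of F, and 95% intervals come from it. Floors (3 counts) cover counting error only. Shares and ratios were tested with SciPy 1.17.1 by exact two-sided permutation over libraries. Alternatives used DESeq2 1.42.0 and limma 3.58.1, among others. The fits were tested on simulated data in which few genes changed. That test does not check the scaling between groups here, where 79.5% of tested genes were called. Replicate libraries differed by more than counting noise (chi-square per degree of freedom 1.35 to 3.22) and each was counted as 1 sample.

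Exon lengths, overlaps and 50-base windows come from GENCODE M21, and coordinates and promoters from RefSeq (GRCm38, the assembly mm10 names); all 77 list genes matched and 8 of 10 members had a promoter entry. Members and lists were chosen with earlier results of these data known. Genes named beyond the 10 are, per list, the 2 largest called changes in each direction (mean over the libraries 1 CPM or more), and genes at 0 counts throughout or too low to test; other names are marked or serve a count. Some results that this rule would name are not reported here.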

Additional observations from a re-analysis of the deposited data

How the results depend on the processing

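The directions and calls of Plin2, Plin4, Mgll, Dgat2 and Pnpla2 held in all 14 alternatives run (other scaling, tests and filters, replicate block, thinning, each library left out), with log2 changes of −1.17 to −0.97, −3.87 to −3.64, 2.06 to 2.27, 0.65 to 0.94 and 0.21 to 0.40. Scaling by total counts called 5 of the 10 genes lower in place of 2. Among all 12800 tested genes it called 5938 lower in place of 5024, and 4268 higher in place of 5146. With that scaling, higher genes numbered 0 in place of 2 among other lipases and 3 in place of 5 in signalling to lipolysis. Among PPAR regulators they numbered 1 in place of 2. Other lipases had 1 higher gene in the DESeq2 Wald test, with no filter and after thinning, and 1 to 2 with a library left out. Among the 10 genes, signs turned for 2 that were not called: Plin3 after thinning (0.009) and with a library left out (−0.077 to 0.005), and Abhd5 with a library left out (−0.069 to 0.016). Among called genes of the other lists the sign turned for Gnas, from 0.09 to −0.06 with total counts. Scaling by total counts kept all libraries and reads and shifted the median log2 change of all genes by −0.15. In the other settings, some of which hold fewer samples or reads, the cause was not tested.

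Same-numbered libraries did not deviate together (correlations −0.002, 0.011 and 0 across genes), so numbers were not taken as pairs. With the replicate block 10161 genes were called in place of 10170, with 3 and 2 of the 10 genes higher and lower. Shares and ratios kept their direction in every alternative. The planned Plin5 share and Plin5 to Plin2 ratio were not run, because Plin5 had 1 count per group. Depth limits what can be said of Plin5, and of Plin4 in myotubes (29 counts).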
